A study of Mus musculus with 11 samples.

Results

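Promoters with many PU.1 ChIP-Seq reads, and many more than in the input, in both MEL cells and ES-EP are described here, 384 of the 22359 promoter windows of protein-coding genes (1.72%). They were chosen by their reads. A window of 500 bp around a transcription start site (TSS) was kept when it held at least 80 PU.1 ChIP reads in each cell type and, in each, at least 4 times the reads of the depth-scaled input, with an input under 3 reads set to 3. For each gene the TSS with the most ChIP reads over both cell types was taken. Overlapping windows were joined, which left 346 loci, 308 with 1 of the 384 promoters and 38 with 2. The number of promoters depends on the preparations, and was 194 without MEL B.

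PU.1 is a transcription factor of the ETS family that binds DNA at purine-rich sites with a GGAA core, and it is best known for its part in the formation of myeloid and B cells. Immature erythroid cells also make PU.1, and its level falls as they mature. A promoter is the stretch of DNA at the start of a gene where RNA polymerase and its regulators assemble, and ETS sites are common in the CpG-rich promoters of housekeeping genes, where other ETS factors such as GABP and ELF1 are known to bind.

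MEL cells are murine erythroleukemia cells, here 1 clone (clone 4) stably transfected with a fusion of GATA-1 to the estrogen receptor. ES-EP are erythroid progenitors derived from embryonic stem cells and grown in a medium with Epo, SCF, dexamethasone and IGF-1. In both cell types 2 chromatin preparations (A and B) were precipitated with the same antibody against PU.1 (T-21), and each preparation was sequenced as 2 libraries. Input DNA was sequenced in 1 library for MEL cells and 2 for ES-EP. The labels name neither a PU.1-deficient control nor an inducer of differentiation, and reads of a ChIP cannot check the identity of the cells.

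The ChIP libraries hold 2054667 to 4840424 reads on placed chromosomes and the input libraries 2437650 to 5051235. Both libraries of each preparation were added up, giving n = 2 preparations in each cell type, and values scaled to a depth of 10000000 reads are called normalised reads.

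The preparations stood apart in how much of their DNA came from these promoters. In MEL cells 0.285 and 0.296% of the reads of the A libraries fell in the 346 loci, against 0.505 and 0.660% in the B libraries. In ES-EP the order of the letters was the opposite, with 0.895 and 1.24% in A and 0.366 and 0.564% in B. The inputs had 0.0358% (MEL cells) and 0.0688 and 0.0936% (ES-EP). At 377 of the 384 promoters MEL B was above MEL A, and ES-EP B was above ES-EP A at 6. The median fold between the preparations of a cell type was 2.05 for MEL and 2.15 for ES-EP, so that a difference of this size between the cell types is within the spread of the preparations.

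Example sites are shown first, because most of these promoters share their core letters. They were chosen after their values had been seen, from the 20 strongest of the 384 promoters and from Vav1, E2f4 and Cog2, and are not the full set. Each line gives 30 bases of mm9 around the GGAAGT nearest to the summit, the highest point of the smoothed ChIP reads of both cell types. They are written on the strand that reads GGAA, with GGAAGT and the 2 bases before it in capitals. The first set has GA before the core, the classical PU.1 word.
C330019G07Rik, chr5:33196897-33196926, minus strand: tggccccggatGAGGAAGTgcggtaggtgg
Wdr43, chr17:71965509-71965538, minus strand: gggcctgcaggGAGGAAGTggggcggaggg
Lrrk1, chr7:73533204-73533233, minus strand: gccgcaggattGAGGAAGTgcgtctggccc
Itgav, chr2:83564534-83564563, minus strand: ccccgccgaaaGAGGAAGTcgcgctcacgg
Arpp19, chr9:74885473-74885502, plus strand: tttgagggaaaGAGGAAGTgctcgggcgtc
Dusp5, chr19:53603431-53603460, minus strand: agagcgagaaaGAGGAAGTggcgggcgatc
Vav1, chr17:57418501-57418530, plus strand: cagtcacagaaGAGGAAGTggtgttgtagt

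The second set has GC before the core, so that the word holds a CpG.
Gpd2, chr2:57090669-57090698, minus strand: ggcagggaaatGCGGAAGTgcagccggtgg
Arpc4, chr6:113328149-113328178, minus strand: aaagcggaagtGCGGAAGTgcccggacccg
Tatdn1 and Ndufb9, chr15:58765275-58765304, plus strand: cccagggaaaaGCGGAAGTggctcagagca
Sbno2, chr10:79565446-79565475, minus strand: ccttcgcagaaGCGGAAGTgcgcgccgccg
Arpc2, chr1:74283046-74283075, plus strand: gcgggcggcgaGCGGAAGTgggtgtgagag
Tmx1, chr12:71554081-71554110, plus strand: cggccgccagaGCGGAAGTggagctgcggc
E2f4, chr8:107821567-107821596, plus strand: taggaacggaaGCGGAAGTggcgccgccgc
Cog2, chr8:127044685-127044714, plus strand: tactggcggaaGCGGAAGTggagctgggac

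The last set has other bases before the core, AA at Kif3b and GG at Mms19 and 4732418C07Rik.
Kif3b, chr2:153117133-153117162, plus strand: gccgggttgctAAGGAAGTgagcgccgcgg
Mms19, chr19:42055807-42055836, plus strand: cggctccgggaGGGGAAGTgactgccgggc
4732418C07Rik, chr4:115410360-115410389, plus strand: ccgctgccaaaGGGGAAGTgagctaagact

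Longer stretches of 120 bases around the summit are given for 2 promoters where they touch no annotated exon. Both are written on the strand of the gene, with GGAAG, or CTTCC on the other strand, in capitals. The Dusp5 summit lies 162 bases before the TSS and its stretch holds 1 such word. The Atic summit lies 95 bases before the TSS, and its stretch holds 2 of them and no GGAAGT.
Dusp5, chr19:53603377-53603496, plus strand: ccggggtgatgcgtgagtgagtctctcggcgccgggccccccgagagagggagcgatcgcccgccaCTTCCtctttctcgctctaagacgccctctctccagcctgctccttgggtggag
Atic, chr1:71603569-71603688, plus strand: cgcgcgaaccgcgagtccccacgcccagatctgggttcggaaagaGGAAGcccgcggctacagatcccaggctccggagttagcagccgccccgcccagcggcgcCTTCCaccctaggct

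The level of PU.1 reads at the 384 promoters is what chose them, so the values that follow are a description without a test. The median promoter held 124 ChIP reads in MEL cells (80 to 1358) and 231 in ES-EP (81 to 2000), next to a median of 4 and 17.5 input reads. As normalised reads this is 97.8 for MEL and 173 for ES-EP, where the median of all promoters was 8.67 and 8.22. The median ratio to the scaled input was 10.7 for MEL and 7.79 for ES-EP. The input itself was also above that of other promoters. Its median was 9.35 (MEL cells) and 23.4 (ES-EP) normalised reads at the 384 promoters against 4.67 and 6.68 at all promoters, and the input of ES-EP has a low peak at the TSS.

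**Figure D1:**
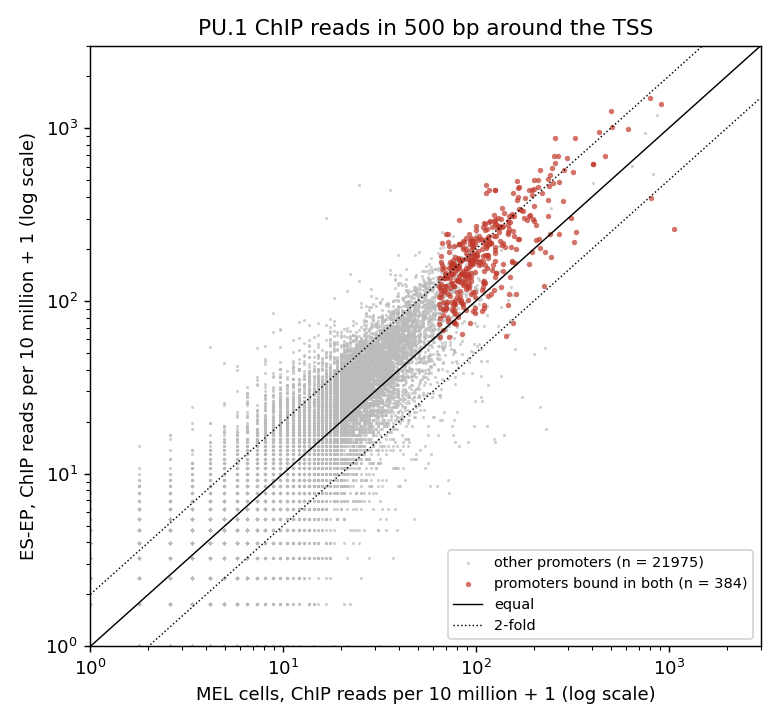
Normalised PU.1 ChIP reads in 500 bp around the TSS in MEL cells (horizontal) and ES-EP (vertical), each as reads per 10000000 plus 1 on a log scale, for 22359 promoters, with the libraries of a cell type pooled. The 384 chosen promoters (red) start at 63.1 (MEL cells) and 60.5 (ES-EP) normalised reads, the lowest values among them, and 346 of them lie above the line of equal values.

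At the margin of the rule, 1110054O05Rik, Clpp (a mitochondrial protease), Commd6 and Rad21 (a cohesin subunit) were kept with 80 reads in MEL cells and Dnaja1 (a DnaJ cochaperone) with 81. Nckap1l (a hematopoietic regulator of actin), Prps1l3, Stx2 (a syntaxin) and Tigd2 were left out with 79 and Rpl18 (a ribosomal protein) with 78, although all 5 had 145 to 251 reads in ES-EP. A further 239 windows had 80 or more reads in both cell types but too much input in at least 1 of them, among which Wdfy3 stayed just under the limit with a ratio of 3.99 in ES-EP, and Gemin4 and Pisd with 3.9993 in MEL cells.

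The 20 of the 384 promoters with the highest lower value of the 2 cell types belong to genes of many kinds. The first is C330019G07Rik, with 530 and 1234 normalised reads in MEL A and B, against 2034 and 802 in ES-EP A and B. Gpd2, the mitochondrial glycerol-3-phosphate dehydrogenase, had 528 and 1015 in MEL cells, against 2189 and 879 in ES-EP. At both genes 1 ES-EP preparation was above and the other below MEL B, so the cell types overlap.

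Wdr43, a nucleolar factor of ribosome production, had 398 and 787 in MEL A and B, against 1426 and 599 in ES-EP A and B. Lrrk1, a large kinase with leucine-rich repeats, had 346 and 644 in MEL cells, against 1532 and 572 in ES-EP. Itgav, the integrin αV chain, had 340 and 633 in MEL cells, against 1944 and 654 in ES-EP. Of these 3 promoters, Itgav alone had both ES-EP preparations above both MEL preparations, and there ES-EP B and MEL B differed by a small amount.

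Metabolic and housekeeping genes follow. Arpp19, an inhibitor of the phosphatase PP2A at mitosis, had 244 and 593 in MEL A and B, against 1434 and 526 in ES-EP A and B. Tatdn1 (of a family of nucleases) and Ndufb9 (a subunit of respiratory complex I) lie head to head, and their windows share nearly all reads, with 514 ChIP reads in MEL cells at both genes and 833 and 834 in ES-EP. Atic, which makes the last steps of purine synthesis, had 161 and 352 in MEL cells, against 1002 and 406 in ES-EP, both ES-EP preparations being above both of MEL cells.

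Mms19, a factor of iron-sulfur protein assembly, had 154 and 364 in MEL A and B, against 726 and 280 in ES-EP A and B. Mms19 lies head to head with Ubtd1, so these reads may belong to either gene. Tmx1, a thioredoxin-like protein of the endoplasmic reticulum, had 176 and 325 in MEL cells, against 905 and 381 in ES-EP. Sbno2, a transcriptional coregulator, had 200 and 431 in MEL cells, against 1354 and 466 in ES-EP. Tmx1 and Sbno2 had both ES-EP preparations above both MEL preparations, and Mms19 did not.

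Kif3b, a kinesin motor, had 207 and 412 in MEL A and B, against 853 and 290 in ES-EP A and B. Zfp809, a zinc finger protein that silences retroviral DNA, had 219 and 336 in MEL cells, against 501 and 272 in ES-EP. 4732418C07Rik had 218 and 342 in MEL cells, against 842 and 333 in ES-EP. In all 3 the values of ES-EP B lay between those of MEL A and MEL B.

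Dusp5, a nuclear phosphatase that inactivates ERK, was among the few with more reads in MEL cells, 397 and 1141 in A and B against 495 and 300 in ES-EP A and B. MEL A was below ES-EP A, so the groups overlap. Ano6, a calcium-activated lipid scramblase, had 246 and 362 in MEL cells, against 482 and 144 in ES-EP. Slc22a15, a member of the organic ion transporter family, had 649 and 1414 in MEL cells, against 355 and 173 in ES-EP, with no overlap.

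**Figure D2:**
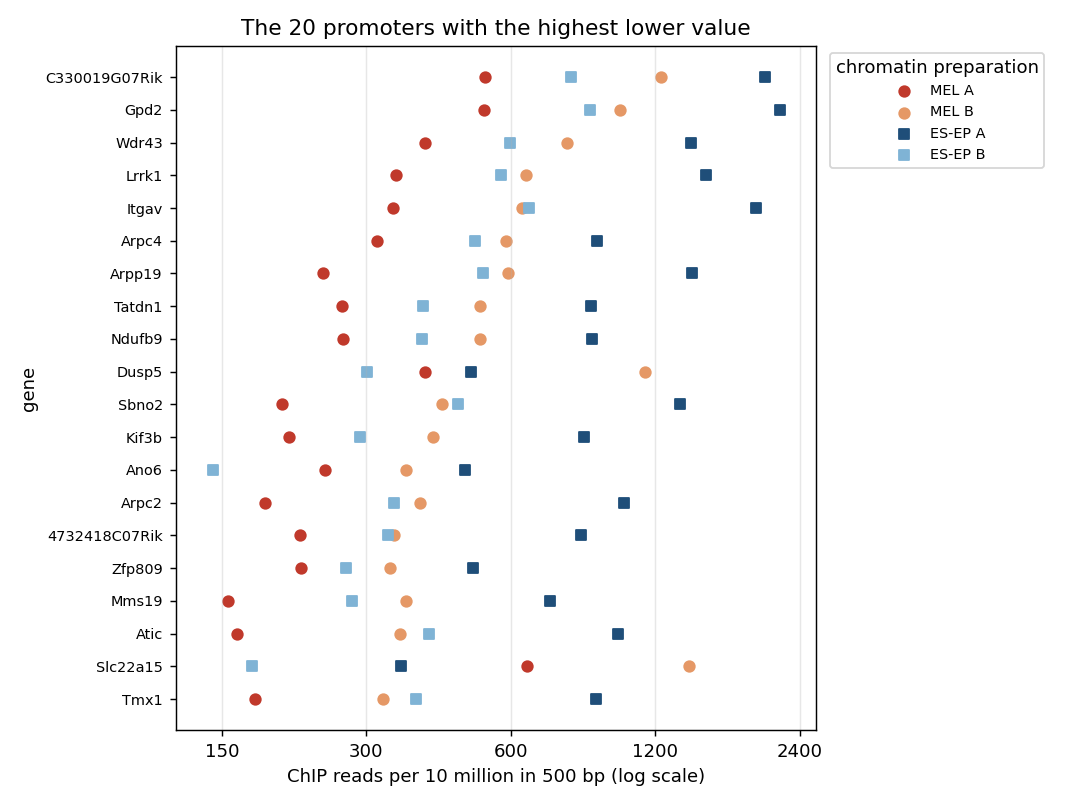
Normalised PU.1 ChIP reads (per 10000000 reads) in 500 bp around the TSS (log scale) of the 20 promoters with the highest lower value of both cell types among the 384, 1 point for each chromatin preparation. MEL A lies left of MEL B and ES-EP B left of ES-EP A in each row, and at Slc22a15 both MEL points lie right of both ES-EP points.

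Subunits of the Arp2/3 complex, which nucleates branched actin, made 3 of 9 (against 1.72% of all promoters), although this list was drawn up after its members had been seen and is no independent evidence. Arpc4 had 316 and 585 normalised reads in MEL A and B, against 909 and 505 in ES-EP A and B. Arpc2 had 184 and 388 in MEL cells, against 1036 and 342 in ES-EP, and Arpc5 had 111 and 208 in MEL cells, against 554 and 264 in ES-EP. Arpc5 is the one of the 3 with both ES-EP preparations above both MEL preparations.

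Vav1, a signalling protein of blood cells, had 87.8 and 248 normalised reads in MEL A and B, against 423 and 193 in ES-EP A and B. Cdc42, a small GTPase that acts on cell polarity, had 47.4 and 84.4 in MEL cells, against 170 and 76.1 in ES-EP. Among other genes of the actin cytoskeleton, chosen after their values had been seen, Tln1 (talin), Coro1b (a coronin), Capza2 (a capping protein), Nck1 (an adaptor) and Actb (β-actin) were among the 384, with 93 to 237 reads in MEL cells and 168 to 586 in ES-EP.

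Signalling genes of NF-kB and of innate receptors made 6 of 41 (14.6%), again from a list made with the members in view. Ikbkb, a kinase that activates NF-kB, had 160 and 325 normalised reads in MEL A and B, against 671 and 317 in ES-EP A and B. Tnfaip3, which limits NF-kB activity, had 142 and 335 in MEL cells, against 888 and 330 in ES-EP. Irak1, a kinase below Toll-like receptors, had 163 and 236 in MEL cells, against 350 and 113 in ES-EP. Traf3, Casp8 and Malt1, adaptors and proteases of the same pathways, had 194, 97 and 89 ChIP reads for MEL and 428, 112 and 181 for ES-EP.

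The lists of the next 2 groups were also made with the members in view. Of 10 kinases of the Src family and their regulators, Lyn and its inhibitor Csk were among the 384. Lyn had 158 reads for MEL and 182 for ES-EP, and Csk had 134 and 304. Of 42 non-receptor tyrosine and dual-specificity phosphatases, Dusp5, Ptpn2, Ptpn9 and Ptpn4 were (9.52%). The Hippo kinase gene Stk4 (321 and 926 reads) and Mcl1, which protects cells from apoptosis (419 and 334), stood near the top, at ranks 22 and 24. Stk4 and Mcl1 were chosen for mention after their values had been seen.

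The lists drawn up together with the rule gave lower shares. Of 49 myeloid and lymphoid genes 3 were among the 384 (6.12%), namely Vav1, Laptm5 and Fcgr2b. Laptm5, a lysosomal protein of blood cells, had 40.4 and 163 normalised reads in MEL A and B, against 164 and 80.3 in ES-EP A and B. Fcgr2b, the inhibitory IgG receptor, had 93.0 and 74.4 in MEL cells, against 167 and 91.6 in ES-EP, and was thus one of the promoters where MEL A was above MEL B. The median gene of the list had 11.8 normalised reads for MEL and 7.47 for ES-EP, close to all genes.

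The median gene of a list of 35 erythroid regulators and heme enzymes had 19.7 normalised reads for MEL and 26.9 for ES-EP. None of the 35 met the rule, but with 1.72% of all promoters chosen, so short a list would hold few or none. Of 22 ETS factor genes, Elf2 met the rule, with 70.2 and 160 in MEL A and B, against 385 and 163 in ES-EP A and B. Of 97 genes of the cell cycle 4 did (4.12%). E2f4, a mostly repressive E2F factor, had 96.5 and 203 in MEL cells, against 617 and 249 in ES-EP. Anapc4, a subunit of the anaphase-promoting complex, had 91.3 and 173 in MEL cells, against 466 and 238 in ES-EP, and Cdk9, the kinase that releases paused RNA polymerase, had 61.4 and 136 in MEL cells, against 237 and 91.6 in ES-EP. E2f4, Anapc4 and Elf2 had both ES-EP preparations above both MEL preparations, and Cdk9 did not.

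Housekeeping and other classes were each present in small numbers, although most of their shares lay above the 1.72% of all promoters. These shares were not tested. Of 206 genes of vesicle transport 12 were among the 384 (5.83%), with Vamp1 (a fusion protein of vesicles, 204 reads for MEL and 265 for ES-EP), Sec24b (a coat subunit, 201 and 222) and Rab7 (a GTPase of late endosomes, 95 and 123) among them. Of 105 genes of DNA replication and repair 6 were (5.71%), for example Msh6, which recognises mismatches, with 114 and 190 reads. The proteasome had 3 of 45 (6.67%), cytosolic ribosomal proteins 3 of 82 (3.66%), mitochondrial ribosomal proteins 3 of 75 (4.00%), the respiratory chain 2 of 76 (2.63%) and splicing factors 2 of 80 (2.50%). RNA polymerase and general transcription factors had 4 of 105 (3.81%), RNA helicases 3 of 54 (5.56%), ubiquitin enzymes 5 of 175 (2.86%), chromatin modifiers 3 of 108 (2.78%), translation factors 2 of 67 (2.99%) and the PI3K-Akt, ERK and Jak-Stat pathways 1 of 53 (1.89%). The 368 genes named Zfp had 7 (1.90%), close to the share of all promoters. Of 34 tRNA synthetases and 1113 olfactory receptor genes, none was among them, the 34 being too few to read against the 1.72% of all promoters. From lists made with the members in view, 6 of 43 DnaJ cochaperones, 5 of 18 Golgi tethers (Golgb1 counted under 2 gene models) and 7 of 55 genes of RNA decay and 3′ end processing were.

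Lilrb3 and Pira5 carry a limit of their own. They belong to the paired immunoglobulin-like receptors, a family of closely similar genes on chromosome 7, so that reads could be assigned to the wrong copy and both values are uncertain. At Lilrb3, which encodes the inhibitory receptor PIR-B, the reads came from 3 libraries, with 56 in MEL A2, 61 in MEL B2 and 98 in ES-EP A2, and the other 5 ChIP libraries and all inputs had 0. These 3 are second libraries of a preparation, as is ES-EP B2, which had 0. The second ChIP libraries list 0 reads on the mitochondrial genome or unplaced sequence, against 9930 to 24297 in the first ones, and whether they were aligned in another way was not tested. It was the one promoter of the 384 with a ChIP library at 0. At Pira5 the order was the opposite, with 18, 41 and 65 reads in the first libraries of MEL A, MEL B and ES-EP A and 13, 17 and 26 in the second, and with 28 and 65 in ES-EP B1 and B2. No other promoter of the 384 differed by more than 4-fold between the 2 libraries of a preparation relative to the median promoter, and without these 2 there are 382.

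How much each promoter differed between MEL cells and ES-EP was compared over the preparations. The rule needs many reads in both, which limits any difference, and the members' counts are therefore read only beside those of all promoters. Pooled by cell type, 346 of the 384 had more depth-scaled reads in ES-EP (90.1%, against 65.5% of the 14909 promoters with at least 10 reads) and 38 in MEL cells. In ES-EP 126 were over 2-fold higher (32.8%, against 15.2%) and in MEL cells 4 were (1.04%, against 8.28%), which leaves 254 within 2-fold. None was over 5-fold in either direction, which was not counted over all promoters. Both ES-EP preparations were above both MEL preparations at 120 promoters (31.2%, against 24.8%), and both MEL preparations above both ES-EP preparations at 2 (0.521%, against 9.91%), Slc22a15 and Fam63a.

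This excess in ES-EP moved with the preparations. The median log2 difference of the 384 (MEL minus ES-EP, on log2 of normalised reads plus 1) was -1.94 between MEL A and ES-EP A, -0.85 between MEL A and ES-EP B, -0.89 between MEL B and ES-EP A and 0.16 between MEL B and ES-EP B. The share of reads in the 346 loci was highest in ES-EP A and lowest in MEL A, and the part of the precipitation in the difference was not tested.

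By limma (voom, two-sided, Benjamini-Hochberg over 14909 promoters), 1 of the 384 differed between the cell types, Lilrb3, beside 7 of all promoters (0.047%). Lilrb3 was called higher in MEL cells (adjusted p = 0.0424), but its values were 98.3 and 87.3 normalised reads in MEL cells, against 156 and 0 in ES-EP, so the groups overlap and the call rests on the ES-EP preparation at 0. Without Lilrb3 and Pira5 none of the rest was called, and 12 of the 384 had an unadjusted p under 0.05, a smaller share than the 916 of all 14909. The median log2 difference by limma was -0.92 for the 384 promoters and -0.40 for all promoters. Scaling by the median ratio of promoters in place of total reads called 13 of the 384 (3.39%) and 379 of all (2.54%), 4 of the 13 and 249 of the 379 being higher in MEL cells, where total reads gave 3 of 7, and moved the median of all promoters to 0.03 and that of the 384 to -0.45.

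Where all 4 pairs of 1 MEL and 1 ES-EP preparation went in 1 direction, Slc22a15 stood highest in MEL cells, with a log2 difference of 1.93 (SE 0.954, adjusted p = 0.764 by limma), which was 1.38 without MEL B and 2.50 without MEL A. The other was Fam63a, a deubiquitinase gene, with 63.2 and 208 normalised reads in MEL A and B, against 60.5 and 62.0 in ES-EP A and B and a log2 difference of 0.88. MEL A was close to both ES-EP values there, and without MEL B the log2 difference was 0.048. With median ratio scaling Slc22a15 had 2.38 and Fam63a 1.31, and both passed the adjusted threshold. Slc22a15 alone passed with each library taken as a sample, which counts libraries of 1 preparation as independent. Both genes passed with crossed preparations as a block, a setting chosen after seeing the data in which 268 of the 384 passed, 5 of them higher in MEL cells.

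Of those with 4 of 4 pairs higher in ES-EP, the 5 with the largest difference were Vac14, Cog2, Ppp2r5c, Zc3h18 and Fut8. Vac14, the scaffold of the enzyme that makes a lipid of late endosomes, had 52.7 and 160 normalised reads in MEL A and B, against 654 and 310 in ES-EP A and B (log2 difference -2.31, SE 0.886, adjusted p = 0.659 by limma). Cog2, a Golgi tethering subunit, had 70.2 and 146 in MEL cells, against 592 and 275 in ES-EP. The log2 difference of Vac14 was -1.50 without MEL A and -3.08 without MEL B. At both genes ES-EP B was above MEL B, which the choice of 4 of 4 pairs requires and which is no further evidence of a difference.

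Ppp2r5c, a regulatory subunit of PP2A, had 26.3 and 97.3 in MEL cells, against 329 and 113 in ES-EP, where MEL B and ES-EP B were close. Zc3h18, a nuclear RNA-binding protein, had 86.0 and 142 in MEL cells, against 646 and 251 in ES-EP with 63 input reads in ES-EP, the highest input of the 384. Fut8, which adds the core fucose to glycoproteins, had 45.6 and 87.3 in MEL cells, against 352 and 145 in ES-EP. With 1 preparation left out, the log2 differences of Cog2, Ppp2r5c, Zc3h18 and Fut8 lay between -2.85 (Ppp2r5c without MEL B) and -0.999 (Ppp2r5c without MEL A). All 5 passed the adjusted threshold with median ratio scaling, with log2 differences of -1.38 to -1.86, and none by limma on the summed preparations with total reads. With each library taken as a sample, which counts libraries of 1 preparation as independent, Vac14, Cog2 and Zc3h18 passed. All 5 did with crossed preparations as a block, a setting chosen after seeing the data. In that setting 268 of the 384 and 1856 of all 14909 promoters passed, so passing does not set these 5 apart.

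The rule did not compare the positions of the reads between the cell types, beyond asking that both lie in the same window. Within the window the position was nearly the same in both. The summits of MEL cells and ES-EP lay a median of 7 bp apart, within 25 bp at 358 of the 384 promoters and within 50 bp at 374, and more than 100 bp apart at 6. The 2 preparations of MEL cells had summits 10 bp apart (median) and those of ES-EP 7 bp. Across the 4 pairs of 1 MEL and 1 ES-EP preparation the median was 8 to 9.5 bp, which lies between these values.

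The summit lay a median of 19 bp before the TSS, with quartiles of 70.2 bp before and 29.5 bp after it. It was within 100 bp of the TSS at 282 of the 384 (73.4%), against 43.8% of all 21313 promoters with ChIP reads, where the median window of all promoters holds 11 reads in each cell type. The rule asked for many reads around the TSS that had the most, so nearness to the TSS is partly set by the choice. By the annotation, 151 summits lay upstream of the gene (39.3%), 177 in an untranslated part of an exon (46.1%), 18 in a coding exon (4.69%) and 38 in an intron (9.90%). Dusp5 and Mms19 had summits upstream, 162 and 165 bp before the TSS, and those of Arpc4, Lrrk1, Tmx1 and E2f4 lay in an untranslated first part of the gene, 51, 5, 4 and 21 bp after it.

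**Figure D3:**
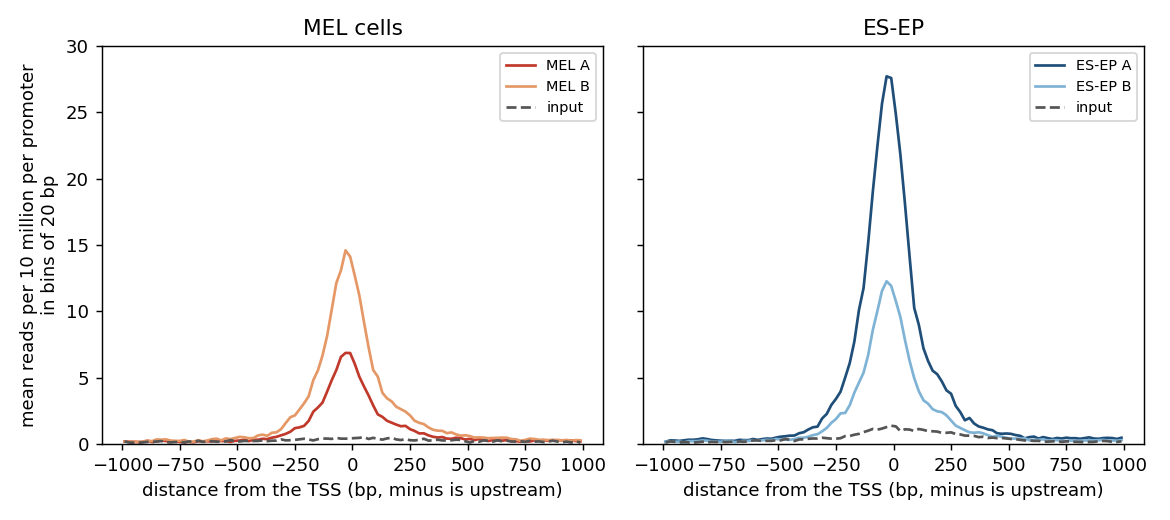
Mean normalised reads per promoter in bins of 20 bp around the TSS of the 384 promoters, on the strand of the gene, for each chromatin preparation (solid) and the input (dashed) of MEL cells (left) and ES-EP (right). The 4 preparations have 1 peak just before the TSS and differ in its height, with ES-EP A highest at 27.7 and MEL A lowest at 6.88, and the input reaches 0.536 for MEL and 1.39 for ES-EP.

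The windows were rich in CpG. The 384 had a median GC content of 66.4% and a ratio of observed to expected CpG of 0.870, against 59.0% and 0.640 for all promoters. With a GC content of at least 55% and a CpG ratio of at least 0.6, 351 were CpG-rich (91.4%, against 49.3% of all promoters). A head-to-head neighbour, a protein-coding TSS on the other strand within 1000 bp upstream, was present at 82 (21.4%, against 8.76%). Neither trait is particular to the 384. Of the windows that met the rule in MEL cells alone, 90.5% were CpG-rich and 16.5% had such a neighbour. The shares were 84.9 and 21.8% for ES-EP alone, and 94.6 and 20.1% with 80 reads in both and too much input. All comparisons of sequence with all promoters are descriptions, since neighbouring words and windows are not independent.

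The core GGAAGT, counted on both strands, was found in 319 of the 384 windows (83.1%, 95% exact binomial interval 78.9 to 86.7), against 33.2% of all promoter windows. Of the 16 words that put 2 bases before it, GCGGAAGT was the most frequent, present in 142 windows (37.0%, interval 32.1 to 42.0), against 3.24% of all promoters. This word was singled out after the words near the summits had been counted. GAGGAAGT, the classical PU.1 word, was present in 83 windows (21.6%, interval 17.6 to 26.1), against 4.56%, and 55.2% of the windows held 1 of these 2 words or both, against 7.62%.

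CCGGAAGT, the word usually linked to other ETS factors, was present in 49 windows (12.8%, interval 9.59 to 16.5), against 5.99%. It is more frequent than GCGGAAGT over all promoters and less frequent among the 384. Read from the other side, 19.6% of all promoter windows with GCGGAAGT were among the 384, against 8.15% of those with GAGGAAGT and 3.66% of those with CCGGAAGT. GGGGAAGT was present in 37 windows (9.64%, against 2.37%) and ACGGAAGT in 27 (7.03%, against 1.31%). With a T before the core, CTGGAAGT was present in 3 windows (0.781%, against 2.46%) and TTGGAAGT in 2 (0.521%, against 1.48%). ATGGAAGT was present in 5 (1.30%, against 1.39%), close to the share of all promoters. None of these lay within 50 bp of a summit. GTGGAAGT was present in 6 windows (1.56%, against 1.51% of all promoters), in 2 of them within 50 bp of a summit.

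**Figure D4:**
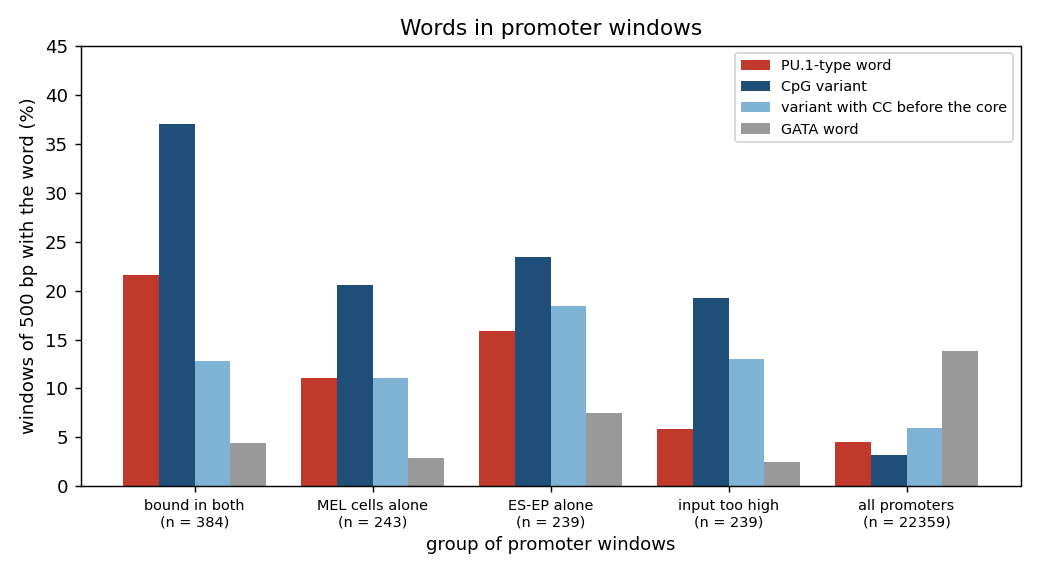
Share of promoter windows of 500 bp (%) that hold a word on either strand, for the 384 promoters bound in both cell types, those that met the rule in MEL cells alone or in ES-EP alone, those with 80 reads in both and too much input, and all promoters. The CpG variant (GC before the core) is in 37.0% of the 384 windows and 3.24% of all windows, and the PU.1-type word (GA before the core) is in 21.6 and 4.56%.

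The difference was also present among CpG-rich windows alone. Among CpG-rich windows GCGGAAGT was in 39.6% of the 384 and 5.45% of all promoters, and GAGGAAGT was in 19.7 and 3.23%. Of the windows that met the rule in 1 cell type alone, 243 for MEL and 239 for ES-EP, 20.6 and 23.4% held GCGGAAGT and 11.1 and 15.9% held GAGGAAGT. In the 239 windows with 80 reads in both and too much input, the shares were 19.2 and 5.86%, at a median GC content of 70.2%. These groups differ in reads by construction.

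The letters around the core go beyond the 2 bases. Over the 292 promoters with a GGAAGT within 50 bp of the summit, the base after the core was G in 82.5%, against 41.8% of all GGAAGT in promoter windows. The base 2 places before the core was G in 72.9%, against 28.4%, and the base before that was A in 49.0% (against 24.9%) and C in 4.45% (against 25.4%). The base just before the core was C in 49.0% and A in 31.8%, against 28.9 and 32.8%, and T in 0.342%, against 16.3%. The sites of Dusp5 and Arpp19 show the run of A before GAGGAAGT, and that of Tatdn1 and Ndufb9 shows it before GCGGAAGT.

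Most GGAAGT words lay close to the summits. In 200 bp around the summit, GGAAGT was in 79.9% of the 384, against 20.4% of all 21313 promoters with ChIP reads. GGGCGG was in 67.4%, against 39.1%. Distances were measured for the 384 alone, and the part of nearness to the TSS in them was not tested. The GGAAGT nearest to the summit was a median of 16 bp from it over the 318 promoters with one within 250 bp, and within 50 bp at 292 of them (91.8%). GCGGAAGT lay a median of 14.5 bp away, within 50 bp at 125 of the 143 promoters with it within 250 bp of the summit (87.4%), and GAGGAAGT 25.5 bp away, within 50 bp at 69 of 85 (81.2%). CCGGAAGT lay 38 bp away and within 50 bp at 30 of 48 (62.5%). The GC box (GGGCGG), which was present in 336 of the 384 windows (87.5%, against 55.4%), lay 35.5 bp away and CCAAT 104 bp.

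**Figure D5:**
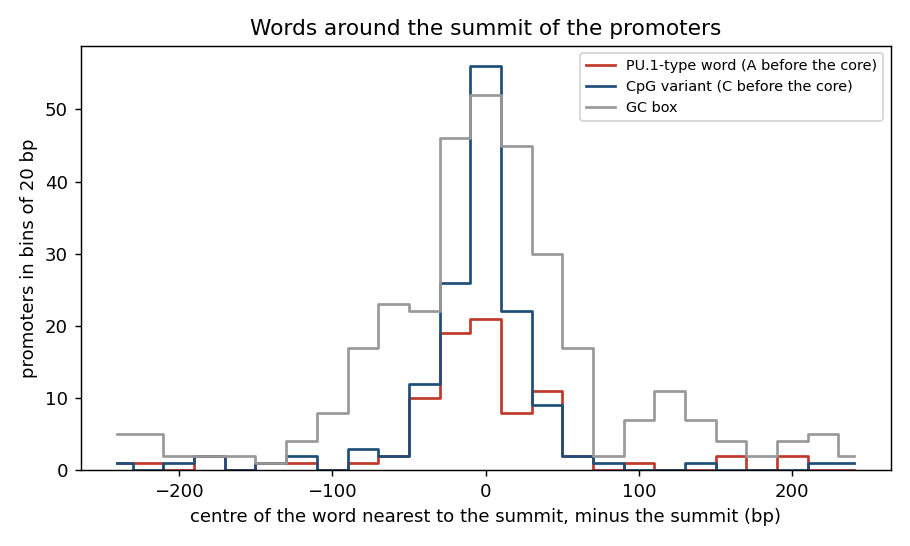
Number of the 384 promoters, in bins of 20 bp, by the distance from the summit to the centre of the nearest PU.1-type word, CpG variant or GC box. The CpG variant and the PU.1-type word gather within 50 bp of the summit, and the GC box spreads over a wider range.

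The reads are given here by the word at the summit, as a description. Taking the word within 50 bp of the summit, 65 promoters had GAGGAAGT, 121 had GCGGAAGT, 4 had both, 102 had another GGAAGT and 92 had none. The median depth-scaled reads were 115 for MEL and 175 for ES-EP with GAGGAAGT, 108 and 203 with GCGGAAGT, 95.4 and 163 with another GGAAGT and 89.9 and 167 with none. The median log2 difference between the cell types was -0.88, -0.98, -0.81 and -0.94 in the same order. Of the 92 without GGAAGT, 59 had GGAAG and 85 had GGAA within 50 bp of the summit, a word so short that it is in 99.0% of all promoter windows. Atic, Ppp2r5c and Fut8 are among these 92.

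Several words of other factors were less frequent than at all promoters. The GATA word AGATAA was in 17 of the 384 windows (4.43%, against 13.8%), CCACACCC, bound by the erythroid factor KLF1, in 11 (2.86%, against 5.26%), the RUNX-type word TGTGGTT in 13 (3.39%, against 7.08%) and the AP-1 word TGAGTCA in 7 (1.82%, against 5.70%). TATAAA was in 17 (4.43%, against 15.4%). AGATAA was in 2.88 and 7.53% of the windows that met the rule in MEL cells alone and in ES-EP alone. It was in 2.51% of those with 80 reads in both and too much input, so its low share is not particular to the 384. Words with a CpG were more frequent than at all promoters, such as the NRF1-type word GCGCATGCG in 21 (5.47%, against 2.46%), AGATGGCGG, a YY1-type word, in 18 (4.69%, against 2.48%), the cyclic AMP response element TGACGTCA in 18 (4.69%, against 2.62%) and the E-box CACGTG in 59 (15.4%, against 10.4%). These windows have a higher GC content than the average promoter, and its part in these shares was not tested. A word in a window is a match of letters and does not show that the factor was there.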

How the data were processed

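Each deposited file lists the aligned reads of 1 library, 1 per line with its position, strand and sequence. The authors sequenced on an Illumina GAII and aligned with ELAND (version not given in the sources used here) to mm9, keeping unique alignments with up to 2 mismatches. The files hold no measured value, and the read counts used here were made from them. The 384 promoters and the gene lists were chosen with earlier results of these data known, and named genes are the 20 strongest, up to 5 with the largest difference in each direction and 4 of 4 pairs alike, those on the erythroid, myeloid and lymphoid, ETS and cell cycle lists, and the 5 on each side of the minimum of 80 reads. Other genes were chosen after their values were seen.

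Read 5′ ends were moved by 70 bp (MEL cells) or 65 bp (ES-EP) and counted, with every read at a repeated position kept, within 500 bp centred on the TSSs of GENCODE protein-coding transcripts on NCBIM37, the same assembly (99.85 to 100% of sampled reads matched it). Summits came from a Gaussian kernel with an SD of 50 bp. Differences were fitted with limma 3.58.1 (voom) in R 4.3.3 over 4 preparations, with depth by total reads and at least 10 reads, and the fit was tested on simulated data. Python 3.11.15 did the rest. Where preparations share 1 culture, p-values measure only the spread between these preparations. Intervals cover counting error only. A low count gives a wide counting error, and members at 80 reads may fall on either side of the rule. The alternatives tried were other models, scalings, filters and windows, single preparations left out and a replicate block.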

Additional observations from a re-analysis of the deposited data

Results flagged for a closer look

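The 4 ChIP libraries of each cell type were searched for 1 library far from the others, in 72 groups of 4 libraries. The groups were the named promoters, Lilrb3 and the share of reads. Chance flags about 1 in 20 if libraries are independent, but pairs of them share a preparation. The 1 group that stood out was Lilrb3 in ES-EP. Lilrb3 was added to the search after its values had been seen, so this flag is a description only. At Lilrb3 in ES-EP, library A2 had 249 normalised reads (reads per 10000000) and the other 3 libraries had 0. The same promoter had reads in the second MEL libraries and 0 in the first ones, and the related Pira5 had more reads in the first than in the second library of MEL A, MEL B and ES-EP A. The cause was not tested.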

How the results depend on the processing

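The number of all promoters that differ, 7 by limma with total reads, was 14 on log2 CPM plus 0.5, 379 with median ratio scaling, 0 without a minimum of reads, 12 in windows of 1000 bp and 133 when libraries of 1 preparation were taken as independent samples. Among the 384 it was 1, and 0, 13, 0, 1 and 4 in the same order (where it was 0, 2 of the 384 and 827 of 14909 promoters, and 9 and 1255 of 22359, had an unadjusted p under 0.05), and 0 without Lilrb3 and Pira5 (a choice made after seeing the data). With the preparation letter as replicate block 1 promoter and 0 of the 384 were called (1 of the 384 and 584 of 14909 promoters at an unadjusted p under 0.05). The labels do not say that the letters pair the preparations. The deviations of MEL A and ES-EP A had a correlation of -0.151 over 14909 promoters, which cannot tell whether a batch was shared. With crossed pairs, also chosen after seeing the data, 1856 promoters and 268 of the 384 were called. Leaving out 1 preparation gave 0 to 7 promoters (0 without MEL A, ES-EP A or ES-EP B) and 0 to 0 of the 384 (at an unadjusted p under 0.05, 1 and 892 of all without MEL A, 16 and 2381 without MEL B, 2 and 179 without ES-EP A, 17 and 486 without ES-EP B), with the lone preparation assumed to vary like the other cell type. The median log2 difference of the 384 lay between -1.42 and -0.36 when 1 preparation was left out, where it was -0.92 with all. The SD over the 4 pairs was 0.859. These pairs are made of the same preparations, so this SD cannot judge whether the median is stable. The rule itself gave 110 promoters with a minimum of 160 reads and 154 with a ratio of 8, and 194 to 491 without 1 preparation, the lowest without MEL B, and the 5 other settings gave 321 to 403. Of the 384, 345 stayed with 1 read per position and 296 in windows of 1000 bp. The median summit distance of 7 bp was 6 bp with 1 read per position, 9 bp with a kernel of 25 bp and 7 to 9 bp without 1 preparation. The share of CCGGAAGT was 9.11% in 200 bp around the summit and became 72.9% for CGGAAG and, chosen after seeing the data, 37.0% for GCGGAAGT. Lilrb3, at a log2 difference of 3.24 by limma, turned to -0.35 with crossed pairs and to -0.74 without ES-EP B, and its range was -0.74 to 7.05 without 1 preparation. The differences of Slc22a15, Fam63a, Vac14, Cog2, Ppp2r5c, Zc3h18 and Fut8 had the same sign under the alternatives, but that of Fam63a was 0.048 without MEL B. The signs of other promoters were not compared across the alternatives. Depth limits the promoters near 80 reads, where counting error exceeds the step between members and others.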
